A study of Mus musculus with 2 samples.

Results

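The genes described here encode 7 enzymes that interconvert or inactivate steroids, among them Hsd11b1, and the glucocorticoid receptor Nr3c1. The genes were taken by symbol, and all 8 were found among the genes of the count matrix. They were followed in single liver cells from 2 mouse liver samples profiled by droplet RNA sequencing. Per the labels, 1 sample was Cebp KO and 1 was Cebp WT. The series describes the knockout of Cebpa, a transcription factor, as specific to hepatocytes, and the study bred floxed Cebpa mice with mice that carry Cre under the albumin promoter. Which Cre line gave the single-cell sample, and the age of the mice, were not stated in the labels or methods used here. Both samples came from mice kept for 2 weeks on HFCFD (40% per the labels), which is high in fat, fructose and cholesterol and promotes steatohepatitis. The barcodes of the joined matrix end in the suffix 1 or 2, and no label ties a suffix to a genotype, so the libraries are called library 1 and library 2 after their suffixes, and knockout was not compared with wild type. With 1 library of each kind, a difference between them has no replicate check, and no test was run.

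Glucocorticoids circulate in active and inactive forms. In the liver the enzyme 11β-hydroxysteroid dehydrogenase type 1, encoded by Hsd11b1, regenerates the active hormone inside the cell, and the receptor Nr3c1 then carries the signal to the nucleus. Sex steroids are handled in the same cells by reductases such as Srd5a1 and Akr1c6 and by oxidising dehydrogenases such as Hsd17b2 and Hsd17b6, which set how much active androgen and estrogen remains. Hsd3b5 is a liver member of the 3β-hydroxysteroid dehydrogenase family that is known as a male-biased gene in mice, and Rdh16f2 belongs to a cluster of short-chain dehydrogenases related to retinol dehydrogenases.

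Expression was measured as UMIs, molecular tags that count each captured RNA molecule once, added up within each cell class and expressed per 1000000 UMIs (CPM). A CPM of 3′ tags needs no scaling for gene length. Ranges after values are exact Poisson 95% intervals, which cover counting error only, not the spread between mice. After filtering, 11617 cells in library 1 and 6088 in library 2 remained, of which 8972 (77.2%) and 3809 (62.6%) passed a hepatocyte gate on 12 marker genes. Deep hepatocytes, with at least 5000 UMIs, numbered 569 in library 1 (14355275 UMIs, median 26423 per cell) and 516 in library 2 (7799037 UMIs, median 13066.5). All 12 hepatocyte markers were detected in the deep cells of both libraries and made up a median of 11.03% and 11.9% of a cell's UMIs, with 16.7% and 15.5% mitochondrial UMIs. The summed markers of the other cell types ranged from 0.139 CPM for basophil or mast cells to 363 CPM for erythroid cells in library 1, and from 0.256 to 269 CPM in library 2. The libraries shared 81 barcodes, none of them in deep hepatocytes. Cebpa itself was at 1.32 CPM in library 1 and 110.3 CPM in library 2 in deep hepatocytes, and these values were not used to name a library.

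In deep hepatocytes 5 of the 8 genes were at least 2-fold lower in library 1, and none was 2-fold higher. Of the 6838 genes with at least 10 CPM in either library, 2.15% were at least 2-fold lower in library 1 and 2.24% were at least 2-fold higher. The median log2 ratio over those genes was 0.026. The 8 genes were chosen with earlier results of these data known, so their count beside these shares is a description only. Hsd17b6, Hsd11b1, Rdh16f2, Srd5a1 and Hsd3b5 made up the lower group, while Akr1c6, Hsd17b2 and Nr3c1 did not reach 2-fold. When all cells were clustered with the 8 genes and the other listed genes left out, the deep hepatocytes of the libraries fell mostly in different clusters. One held 486 deep hepatocytes of library 1 and 1 of library 2 (median 27681 UMIs), and the 2 main ones of library 2 held 326 and 142 of its cells (median 17743 and 7477 UMIs) against 7 and 0 of library 1.

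Hsd11b1 was at 33.7 CPM (30.8 to 36.9) in library 1 and 259 CPM (248 to 270.3) in library 2, which was 7.67-fold lower in library 1 (6.95 to 8.49). At least 1 UMI was found in 49.7% of deep cells in library 1 and in 89.5% in library 2, although the cells in library 1 were the deeper ones. With every cell thinned to 1000 UMIs, the shares were 2.81% and 22.9%. Erythroid cells, which should not make the hepatocyte transcripts and so show the level that free RNA gives in a droplet, had thinned shares of 0.707% and 10.5% at median depths of 4124 and 3657 UMIs. In library 1 the 95% binomial interval of the hepatocyte share (1.62% to 4.53%) overlapped the erythroid one (0.0857% to 2.53%), and B cells had a thinned share of 6.02%. Over all UMIs, the deep hepatocytes of library 1 lay above the erythroid cells, with 0.851 UMIs per cell (0.777 to 0.930) against 0.0484 (0.0271 to 0.0798) and 33.7 CPM against 11.7 CPM (6.56 to 19.3). In library 2 the hepatocyte interval (19.3% to 26.7%) lay above the erythroid one (5.56% to 17.7%) and overlapped that of B cells (15.2%, 7.51% to 26.1%).

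Hsd17b6 showed the widest gap, at 23.6 CPM (21.2 to 26.3) in library 1 and 253 CPM (242 to 264) in library 2, or 10.7-fold lower in library 1 (9.53 to 12.0). The enzyme oxidises androstanediol and related steroids. With cells thinned to 1000 UMIs, 2.64% of deep cells in library 1 (1.48% to 4.31%) and 18.8% in library 2 (15.5% to 22.4%) held a Hsd17b6 UMI. Erythroid cells had 0.353% (0.00895% to 1.95%) and 5.26% (1.96% to 11.1%), so the intervals overlapped in library 1. In library 2 the share lay above that of erythroid cells and overlapped those of B cells (10.6%, 4.37% to 20.6%) and neutrophils (10.2%, 3.40% to 22.2%). Per cell in library 1, Hsd17b6 was at 0.596 UMIs (0.534 to 0.663) in deep hepatocytes and 0.0258 (0.0111 to 0.0508) in erythroid cells. Among the cells in library 2 the lower and upper quartiles were 0.594 and 3.55 UMIs per 10000 and the upper 5% began at 7.39, a spread that includes the counting error of few UMIs per cell. Of the 50-base windows in the last 500 bases of its transcripts, 17.3% also occur in 1 or more of 8 related genes. Rdh1 and Rdh16f1 shared the most (199 of 1150 windows), then Rdh19 (127), Rdh18-ps (115), Rdh9 (95), Rdh7 (79), Rdh16 (55) and Rdh16f2 (2). Rdh7 had 8743 and 4860 UMIs in deep hepatocytes, Rdh16 1377 and 361, Rdh9 12 and 15, and Rdh1 and Rdh19 had 0 in both libraries. The count table had no entry matching Rdh16f1 or Rdh18-ps.

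Rdh16f2 was at 19.1 CPM (16.9 to 21.5) in library 1 and 56.2 CPM (51.0 to 61.7) in library 2, a 2.94-fold lower level (2.52 to 3.43). Srd5a1, the 5α-reductase that converts testosterone to dihydrotestosterone and also starts glucocorticoid breakdown, was at 29.3 CPM (26.6 to 32.3) and 77.6 CPM (71.5 to 84.0), a 2.65-fold lower level (2.33 to 3.003). Hsd3b5 was the lowest of the 8, at 8.22 CPM (6.80 to 9.84) and 18.2 CPM (15.3 to 21.5), 2.22-fold lower with an interval of 1.72 to 2.85 that crosses 2-fold. In cells of the matched depth of 10000 to under 20000 UMIs, Hsd3b5 was at 15.8 CPM in library 1 and 18.3 CPM in library 2, and their intervals overlapped. At 5000 to under 10000 UMIs it lay the other way, at 27.3 and 19.5 CPM with overlapping intervals. Only at 20000 UMIs or more were the intervals apart (6.27 and 17.7 CPM). In the 83 and 155 deep cells with at most 10% mitochondrial UMIs, the log2 ratio went from −1.40 to −2.50 for Srd5a1, from −1.56 to −2.80 for Rdh16f2 and from −3.42 to −4.03 for Hsd17b6.

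The remaining genes lay closer to the centre of all genes. Akr1c6, an aldo-keto reductase that acts on sex steroids, was the most abundant member at 582 CPM (569 to 594) in library 1 and 607 CPM (590.0 to 625) in library 2, a ratio of 0.958 (0.924 to 0.993). Hsd17b2, which oxidises estradiol and testosterone to weaker forms, was at 150.05 CPM (144 to 157) and 113 CPM (106 to 121), a ratio of 1.33 (1.23 to 1.44). That difference was not present at every depth: Hsd17b2 intervals overlapped in every class under 20000 UMIs. These included 5000 to under 10000 UMIs (118 and 139 CPM) and 10000 to under 20000 UMIs (137 and 107 CPM). The intervals of the thinned shares of deep cells overlapped too (11.6% and 13.2%). Nr3c1 was at 81.9 CPM (77.3 to 86.7) and 66.7 CPM (61.1 to 72.7), a ratio of 1.23 (1.11 to 1.36). By depth class, the Nr3c1 intervals were separate at 10000 to under 20000 UMIs (81.6 and 54.9 CPM) and overlapped in the others. With at most 10% mitochondrial UMIs Akr1c6 was at 1189 and 1252 CPM and the log2 ratio of Nr3c1 was 1.003 beside a median of 0.36 over the 7377 genes tested there, and with no mitochondrial limit Akr1c6 was at 480.4 and 370.1 CPM. By level in deep hepatocytes, Akr1c6 led in both libraries. In library 2 it was followed by Hsd11b1 and Hsd17b6, whose intervals overlapped, whereas in library 1 Hsd17b2 and Nr3c1 came next, ahead of Hsd11b1.

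**Figure D1:**
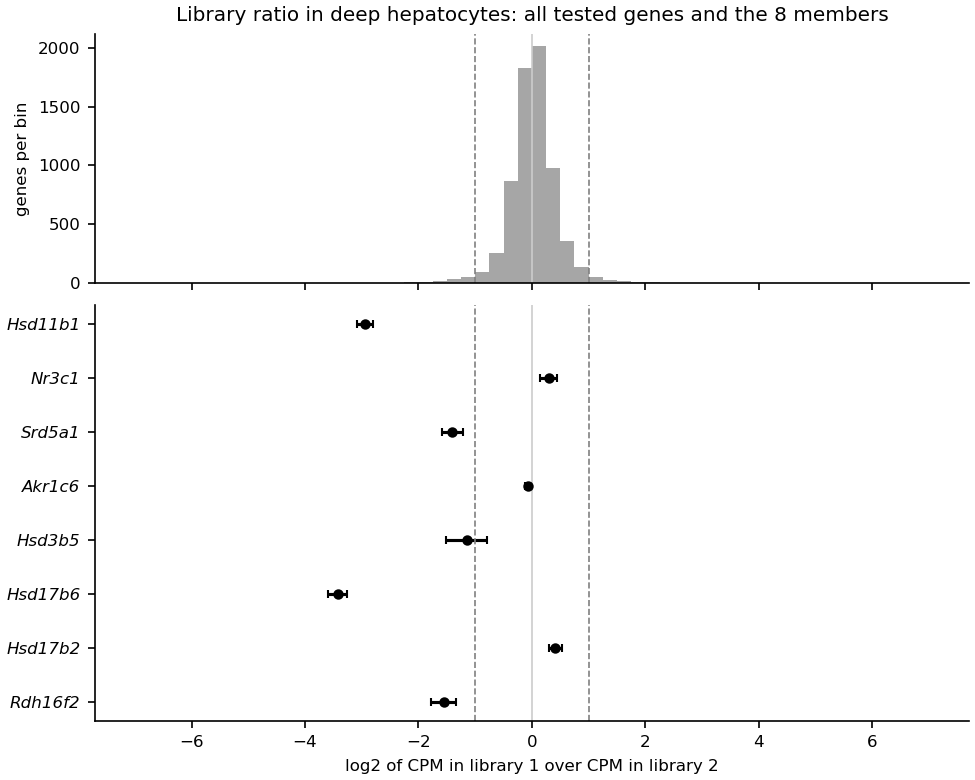
Upper panel, number of tested genes per bin of 0.25 in the log2 ratio of CPM in library 1 over library 2 in deep hepatocytes, with 3 UMIs added to both sums. Lower panel, the ratio of each of the 8 genes (points) with its 95% interval (bars, counting error only). Hsd17b6 and Hsd11b1 lie farthest to the left, Rdh16f2, Srd5a1 and Hsd3b5 lie just beyond the dashed line at 2-fold, and Akr1c6, Nr3c1 and Hsd17b2 lie between the lines.

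Because Hsd11b1 and Hsd17b6 were low together in 1 library and Akr1c6 was not, the 250 bases before their RefSeq starts (GRCm38.p6) are shown for comparison. Capitals mark CCAAT or, on the other strand, ATTGG, the box after which the C/EBP family was named.
Hsd11b1, chr1:193242361-193242610, minus strand: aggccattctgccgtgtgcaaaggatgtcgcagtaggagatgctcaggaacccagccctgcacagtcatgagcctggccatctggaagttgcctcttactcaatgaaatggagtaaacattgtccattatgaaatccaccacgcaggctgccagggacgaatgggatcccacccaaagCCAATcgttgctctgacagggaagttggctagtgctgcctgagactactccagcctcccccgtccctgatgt
Hsd17b6, chr10:128007612-128007861, minus strand: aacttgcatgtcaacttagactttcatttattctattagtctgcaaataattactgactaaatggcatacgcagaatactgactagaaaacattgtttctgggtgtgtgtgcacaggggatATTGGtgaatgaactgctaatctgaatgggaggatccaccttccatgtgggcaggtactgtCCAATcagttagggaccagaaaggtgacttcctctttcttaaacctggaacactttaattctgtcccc
Akr1c6, chr13:4434093-4434342, plus strand: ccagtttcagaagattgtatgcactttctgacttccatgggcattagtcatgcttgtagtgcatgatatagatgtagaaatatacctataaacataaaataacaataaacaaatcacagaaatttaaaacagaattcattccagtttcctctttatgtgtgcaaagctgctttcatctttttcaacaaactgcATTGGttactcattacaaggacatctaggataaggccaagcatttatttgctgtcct
Windows were given for 6 of the 8 genes, 7 windows in all because Hsd17b6 has 2 starts, and CCAAT or ATTGG was found for 5 of the 6 genes. Over all 32851 windows of the table the share with either was 33.8%. The letters TTNNGCAA, a form of the C/EBP binding sequence, or TTGCNNAA were in 0 of the 7 windows and in 9.56% of all windows, and AGAACA or TGTTCT, a core of the sequence bound by the glucocorticoid receptor, in 0 of 7 and 16.1%. None of these letter strings overlaps another in the windows shown. A match is a description of the letters and not a binding site.

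In the GENCODE annotation of GRCm38, Hsd11b1 (ENSMUSG00000016194) spans 193221634 to 193264075 on chromosome 1, minus strand, so the RefSeq start above lies inside the gene as GENCODE draws it. Hsd17b6 (ENSMUSG00000025396) lies on chromosome 10 at 127990936 to 128007611, minus strand, near Rdh16f2 (ENSMUSG00000074639) at 127866474 to 127877317, plus strand. Akr1c6 (ENSMUSG00000021210) and Srd5a1 (ENSMUSG00000021594) are both on chromosome 13, at 4434306 to 4457877 on the plus strand and 69573449 to 69611442 on the minus strand. Hsd3b5 (ENSMUSG00000038092) is on chromosome 3 at 98618634 to 98630252, minus strand, Hsd17b2 (ENSMUSG00000031844) on chromosome 8 at 117701904 to 117759027, plus strand, and Nr3c1 (ENSMUSG00000024431) on chromosome 18 at 39410545 to 39519421, minus strand. All 8 are protein coding. Lamb3 overlaps Hsd11b1, Zfp697 overlaps Hsd3b5 and Nsun2 overlaps Srd5a1, each on the opposite strand. Gm38118 overlaps Hsd11b1, Gm45776 overlaps Hsd17b2 and Gm17108 overlaps Srd5a1, each on the same strand.

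Most droplets that passed the hepatocyte gate were shallow, with 500 to under 5000 UMIs (8403 in library 1 and 3293 in library 2). In them Akr1c6 and Hsd3b5 took a larger share of the UMIs than in deep cells of the same library. Akr1c6 was at 2547 CPM (2504 to 2590) in droplets of 1000 to under 2000 UMIs in library 1, 4.38-fold its deep level (4.26 to 4.50), and at 1483 CPM (1425 to 1543) in library 2, 2.44-fold (2.33 to 2.57). Hsd3b5 was at 56.5 CPM (50.3 to 63.2), 6.87-fold (5.53 to 8.57), and at 41.1 CPM (31.9 to 52.2), 2.26-fold (1.67 to 3.04). Of all tested genes, 6.53% in library 1 and 2.47% in library 2 were at least 2-fold higher in those droplets. These 2 genes were the members that passed 2-fold upward in either library.

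Nr3c1 went the other way, at 39.1 CPM (34.0 to 44.8) in the same droplets in library 1 against 81.9 CPM in deep cells, a 2.09-fold lower level (1.81 to 2.44). In library 2 it was at 42.3 CPM (33.0 to 53.5) against 66.7 CPM, which was 1.57-fold lower (1.22 to 2.05). No other member fell 2-fold in either library, while 19.5% of tested genes in library 1 and 11.3% in library 2 did. Mitochondrial UMIs were a median of 1.47% and 2.58% in these droplets, far below the deep cells. The part of depth or of cell integrity in these differences was not tested.

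The gap between the libraries was present at every depth for 4 of the genes. Hsd11b1 ranged from 32.3 to 56.2 CPM over 6 depth classes in library 1 and from 239.9 to 402 CPM in library 2, highest in the shallowest droplets of each library. Per droplet at 1000 to under 2000 UMIs, Hsd11b1 was at 0.0669 UMIs in library 1 and 0.530 in library 2. Both values lay within the erythroid intervals given below, and the part of free RNA in the shallow gap was not tested. Hsd17b6 ranged from 14.5 to 34.2 CPM in library 1, and in library 2 it climbed from 127 CPM at 500 to under 1000 UMIs to 260.5 CPM at 20000 UMIs or more. Rdh16f2 and Srd5a1 had intervals that did not overlap between the libraries in any of the depth classes. How many of all genes kept such a gap at every depth was not counted, so the 4 genes have no share to be set beside. Akr1c6 was higher in library 1 in all shallow classes and at 5000 to under 10000 UMIs (1356 against 990 CPM), overlapped at 10000 to under 20000 UMIs (624 and 657 CPM), and was again higher in library 1 at 20000 UMIs or more (538 against 439 CPM). The pooled deep ratio of 0.958 thus went against the classes at either end of the deep range, and library 2 had more of its deep cells at 5000 to under 10000 UMIs (198 of 516, against 86 of 569).

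**Figure D2:**
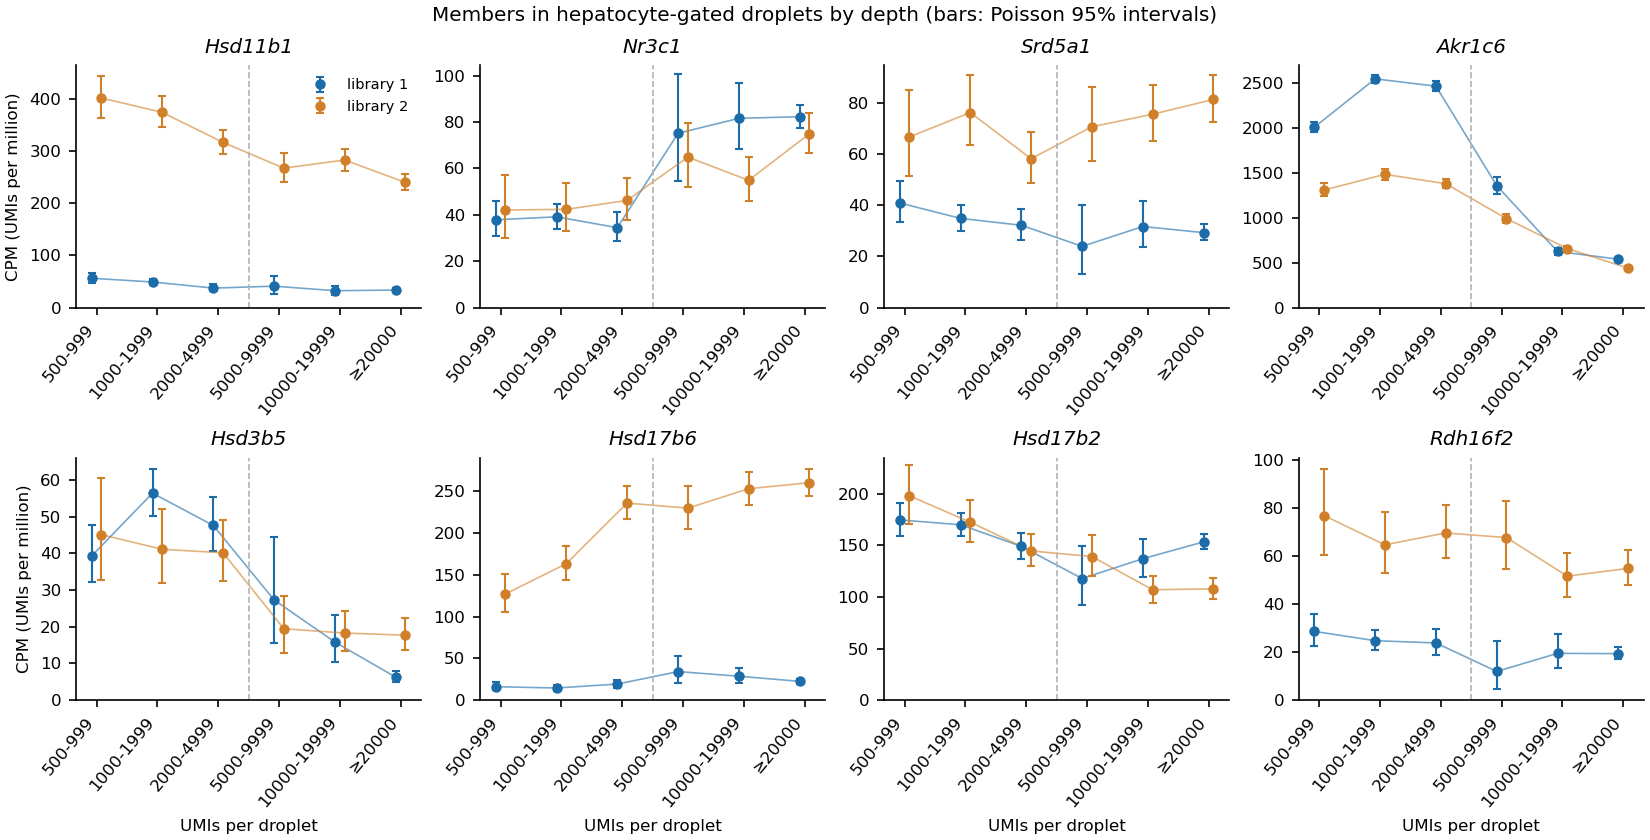
CPM of each of the 8 genes (y axes, each from 0) in hepatocyte-gated droplets by UMIs per droplet (x axes), for library 1 (blue) and library 2 (orange). Points are summed levels, bars are Poisson 95% intervals, and the dashed line marks 5000 UMIs. Hsd11b1, Hsd17b6, Srd5a1 and Rdh16f2 stay apart by library at every depth, while the points of Akr1c6 and Hsd3b5 are lower, and those of Nr3c1 higher, above 5000 UMIs than below it.

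Hepatocytes differ along the axis from the portal vein to the central vein, and the deep cells of each library were ordered by the ratio of 7 pericentral to 8 periportal genes and cut into 3 groups of like size. None of the 8 genes was in these lists. UMIs were summed over each list, so Alb, at 38655 and 41459 CPM, made up most of the periportal sum. Akr1c6 and Hsd3b5 were higher in the pericentral group in both libraries. Akr1c6 was at 476 CPM (459 to 494) in the periportal group and 868 CPM (837 to 900.2) in the pericentral group in library 1, and at 362 CPM (342 to 382) and 1136 CPM (1089 to 1185) in library 2. Hsd3b5 was at 2.01 CPM (1.04 to 3.50) and 27.6 CPM (22.3 to 33.8) in library 1, and at 9.59 CPM (6.60 to 13.5) and 44.8 CPM (35.8 to 55.5) in library 2.

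Hsd17b6 ran in the opposite direction, at 29.4 CPM (25.2 to 34.1) in the periportal and 14.97 CPM (11.1 to 19.7) in the pericentral group in library 1, and at 295 CPM (277 to 313) and 165 CPM (147 to 184) in library 2. Hsd11b1 was lower in the pericentral group in library 2, at 211 against 285 CPM, whereas in library 1 it was at 37.6 against 34.6 CPM with overlapping intervals. Hsd17b2 was lower in the pericentral group in library 1, at 123 against 169.8 CPM, and higher in library 2, at 131 against 99.1 CPM. Srd5a1, Rdh16f2 and Nr3c1 had overlapping intervals between the outer groups in both libraries.

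The pericentral group was also the shallower one, with a median of 15680 UMIs against 32450 in library 1 and 7962.5 against 19987.5 in library 2. In cells of at least 10000 UMIs alone, Akr1c6 was still at 699 against 475 CPM in library 1 and 876 against 336 CPM in library 2, and Hsd3b5 at 20.6 against 2.11 CPM and 40.4 against 7.60 CPM. Hsd17b6 was at 15.4 against 29.8 CPM and 161 against 320.4 CPM. The median depths there were 24659 against 32987 UMIs and 15314 against 21895 UMIs. With Glul and Cyp2f2 left out of the ordering, Glul was at 47.5 CPM in the pericentral and 41.0 CPM in the periportal group of library 1, with overlapping intervals, and Cyp2f2 at 1906 and 2007 CPM, whereas in library 2 Glul was at 64.5 and 8.09 CPM and Cyp2f2 at 848 and 1316 CPM. With all genes in the ordering, the periportal gene Hal was at 198 and 191 CPM in library 1, with overlapping intervals, and at 361 and 552 CPM in library 2. The names of the groups thus rest on fewer of the listed genes in library 1.

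**Figure D3:**
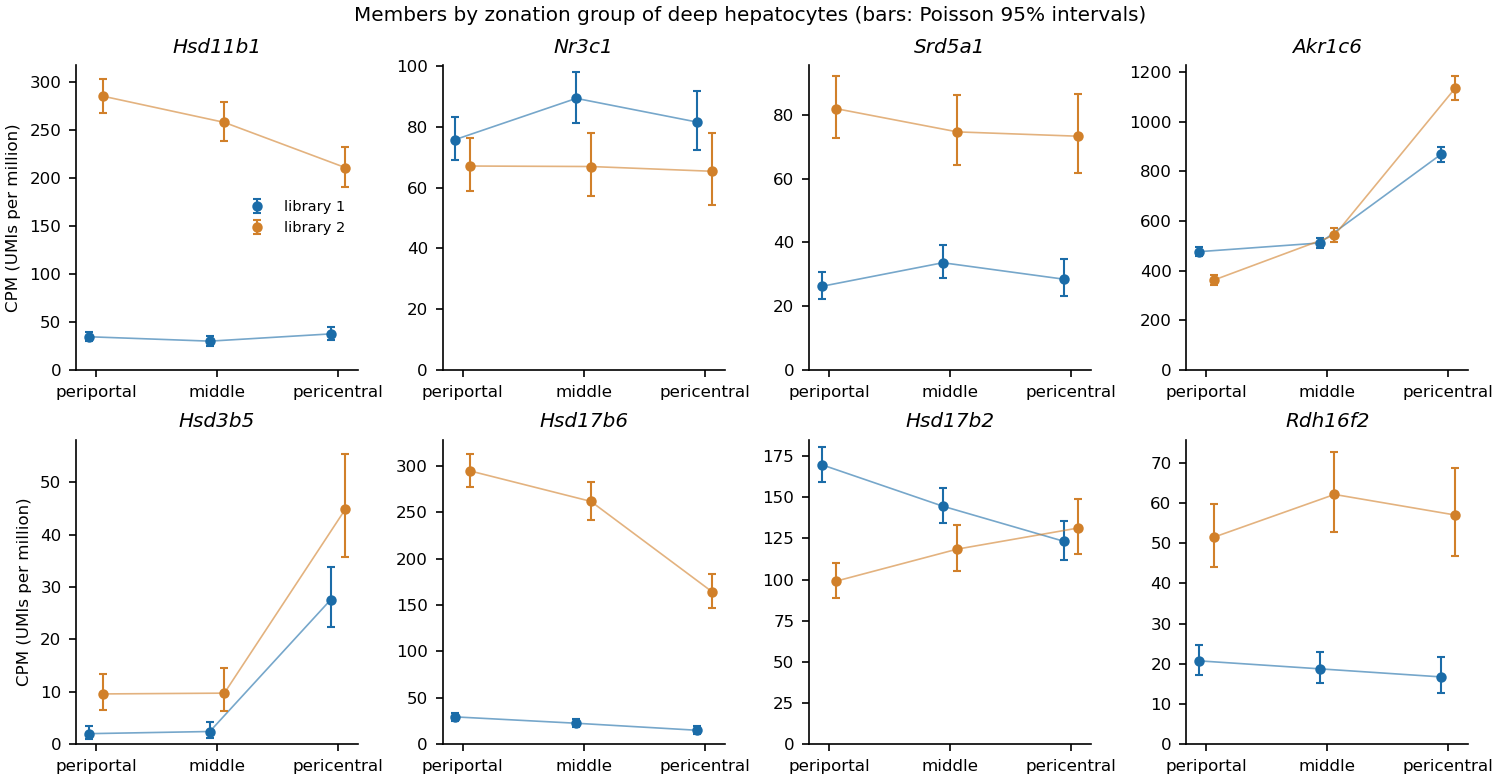
CPM of the 8 genes (y axes, each from 0) in the periportal, middle and pericentral group of deep hepatocytes (x axes), with library 1 in blue and library 2 in orange. Points are summed levels and bars are Poisson 95% intervals. Akr1c6 and Hsd3b5 are highest in the pericentral group of both libraries, and Hsd17b6 is highest in the periportal group of both.

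Outside hepatocytes, Hsd11b1 was highest per UMI in plasmacytoid dendritic, NK, stellate and T cells. Plasmacytoid dendritic cells, the interferon-producing dendritic type, were at 260.0 CPM (228 to 295) in library 1 and 305 CPM (266 to 348) in library 2. NK cells were at 226 CPM (181 to 279) and 370.4 CPM (295 to 459), and T cells at 141 CPM (127 to 155) and 207 CPM (190.2 to 226). In library 1 these classes were all above the 33.7 CPM of deep hepatocytes, whereas in library 2 the T cells were below the 259 CPM there. B cells were at 48.6 and 99.0 CPM, the latter overlapping the 112 CPM of erythroid cells (85.6 to 143).

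Free RNA adds UMIs of hepatocyte genes to other cells, so UMIs per cell were set beside those in erythroid cells. Hsd11b1 was at 1.99 UMIs per cell (1.75 to 2.26) in plasmacytoid dendritic cells in library 1 and 2.13 (1.86 to 2.43) in library 2. Erythroid cells had 0.0484 (0.0271 to 0.0798) and 0.473 (0.363 to 0.607). NK cells had 0.956 and 1.56 UMIs per cell, T cells had 0.746 and 1.03, and all of these intervals lay above the erythroid one. B cells had 0.214 and 0.433 UMIs per cell, the first above and the second overlapping the erythroid level. Leaving out the plasmacytoid dendritic cell with most UMIs gave 250.2 and 293 CPM.

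Stellate cells, the retinoid-storing cells of the sinusoid wall, had Hsd11b1 at 181 CPM (111 to 280.1) and 350.2 CPM (261 to 460.4). They were shallow (median 2129 and 1778.5 UMIs) and rested on 20 and 51 UMIs. Per cell these were 0.435 and 0.671 UMIs, above the erythroid interval in library 1 and overlapping it in library 2. In Kupffer cells or macrophages Hsd11b1 was at 12.7 CPM (9.12 to 17.2) and 86.0 CPM (77.3 to 95.3), in endothelial cells at 17.4 and 98.7 CPM, and in cholangiocytes in library 1 at 0 UMIs in 22 cells, which allows up to 14.3 CPM. Erythroid cells themselves were at 11.7 and 111.7 CPM.

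Nr3c1 was broadly present and was lower in hepatocytes than in most other classes. T cells had the highest level, 301 CPM (281 to 322) in library 1 and 323 CPM (302 to 346) in library 2. Plasmacytoid dendritic, NK, endothelial, neutrophil, macrophage, stellate, B and conventional dendritic cells lay between 192 and 279 CPM in library 1 and between 157 and 249 CPM in library 2, with many neighbours in that order overlapping. Monocytes (131 and 148 CPM), cholangiocytes (114 and 136 CPM) and plasma cells (95.4 and 67.1 CPM) were lower. Erythroid cells were lowest at 25.02 CPM (17.1 to 35.3) and 19.8 CPM (9.89 to 35.5). In each of these non-hepatocyte classes the intervals of the libraries overlapped.

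The other 6 genes were highest in a depth class of hepatocyte-gated droplets in each library, although some other classes exceeded the deep hepatocytes. Akr1c6 was above them in B cells of library 1, and stellate cells there (644 CPM) and neutrophils in library 2 (667 CPM) had intervals that overlapped theirs. Hsd3b5 was above the deep hepatocytes in neutrophils (29.6 CPM) and B cells (24.3 CPM) of library 1. Hsd17b6 stayed at or below 6.25 CPM in library 1 in the non-hepatocyte classes of at least 30 cells, where the erythroid level was 6.25 CPM, and at 16.98 to 68.7 CPM in library 2, where it was 28.8 CPM. Akr1c6 reached 840 CPM (749 to 938) in B cells in library 1 and 509 CPM (430.2 to 597) in library 2, or 3.70 and 2.22 UMIs per cell against 1.30 and 0.557 in erythroid cells and 14.7 and 9.18 in deep hepatocytes. Hepatocyte markers were 4.22% and 4.78% of UMIs in those B cells and 3.35% and 3.96% in erythroid cells, and their part in the Akr1c6 level was not tested.

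**Figure D4:**
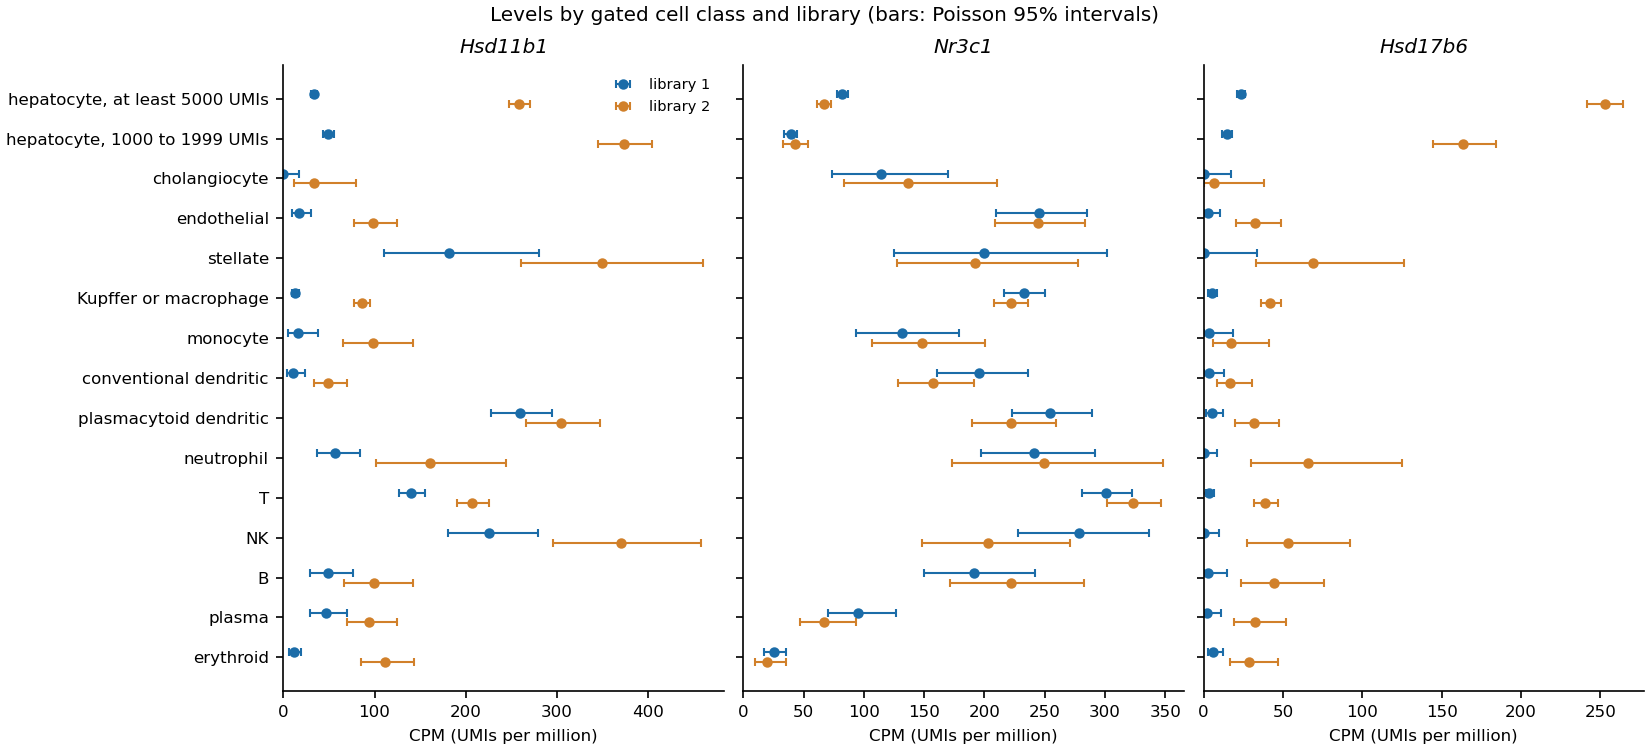
CPM (x axes, from 0) of Hsd11b1, Nr3c1 and Hsd17b6 in deep and shallow hepatocytes and in 13 other gated classes (y axis), with library 1 in blue and library 2 in orange and Poisson 95% intervals as bars. Hsd11b1 is high in plasmacytoid dendritic, NK, stellate and T cells of both libraries, Nr3c1 is higher in most immune and endothelial classes than in hepatocytes, and Hsd17b6 is high in hepatocytes in library 2.

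Across 32 units (hepatocyte depth classes and other classes of at least 30 cells, in both libraries), the gene most like each member was found by the Pearson correlation of log2(CPM + 10) among 8036 genes. The units share libraries and free RNA, so the values are descriptive. Hsd11b1 had the weakest likeness of the 8, with Ebpl (r = 0.74) and Orm1 (0.72), the latter an acute phase protein of hepatocytes. Hsd17b6 was most like Saa4 (0.95) and Orm1 (0.92), and Hsd17b2 most like Cyp4f14 (0.95) and Nrn1 (0.94). Akr1c6 followed Gsta3 (0.99) and Acaa2 (0.97), and Hsd3b5 followed Eci1 (0.91) and Etfb (0.91). Rdh16f2 was most like Cyp3a25 (0.94) and Abcg5 (0.93), Srd5a1 most like Oaf (0.91) and Serpina1d (0.91), and Nr3c1 most like Phf12 (0.97) and Ranbp9 (0.96).

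Beyond the 8 members, 99 genes were followed in deep hepatocytes: other steroid enzymes, receptors and receptor targets, sex-biased liver genes and zonation markers. The partner enzyme of Hsd11b1, H6pd, which supplies its cofactor, was at 87.8 CPM in library 1 and 83.7 CPM in library 2. Hsd11b2, the opposing enzyme, had 0 UMIs in both libraries, which allows up to 0.209 and 0.385 CPM. Among the 17β-hydroxysteroid dehydrogenases outside the members, 6 of 9 genes in the matrix were tested and none passed 2-fold. They included Hsd17b13 (348 and 407 CPM), a lipid droplet protein, Hsd17b4 (190.1 and 182 CPM), a peroxisomal enzyme, Hsd17b10 (81.4 and 136 CPM) and Hsd17b11 (126 and 86.0 CPM).

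Of the 3 tested 3β-hydroxysteroid dehydrogenases, Hsd3b7, which acts in bile acid synthesis, was 2.03-fold lower in library 1 (72.0 against 146 CPM), and Hsd3b3 was at 146 and 145 CPM. Of 6 tested aldo-keto reductases, Akr1d1, the 5β-reductase, was 2.75-fold lower (36.0 against 99.0 CPM), and Akr1c14 was at 120.3 and 83.3 CPM. Of 3 tested genes of the retinol dehydrogenase cluster, Rdh16 was 2.07-fold higher in library 1 (95.9 against 46.3 CPM) and Rdh7 was at 609 and 623 CPM. The 5α-reductases Srd5a2 and Srd5a3 were at 5.51 CPM or less, and no gene of steroid synthesis from cholesterol reached 10 CPM. Of 3 tested receptors and carriers, the estrogen receptor Esr1 was 2.19-fold higher in library 1 (48.9 against 22.3 CPM).

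The glucocorticoid receptor's chaperones gave no 2-fold difference in 7 tested genes. Hsp90ab1 was at 749.7 and 784 CPM, Hspa8 at 632 and 654 CPM, Hsp90aa1 at 209 and 179.0 CPM and Ptges3 at 147 and 139 CPM. Of 13 tested target genes of the receptor, 1 was higher and 1 lower in library 1, and their median log2 ratio was −0.11, against 0.026 over all tested genes. Mt2, a metallothionein that also answers to metals, was 7.59-fold higher (248 against 32.7 CPM), and the cell cycle inhibitor Cdkn1a was 2.62-fold lower (6.62 against 17.3 CPM). The gluconeogenic genes Pck1 (1591 and 1635 CPM) and G6pc (282 and 264 CPM), the tyrosine catabolic gene Tat (651 and 748 CPM), Tsc22d3 (110.1 and 165 CPM), Klf9 (184 and 137 CPM) and Zbtb16 (96.2 and 118 CPM) stayed within 2-fold.

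Male-biased liver genes did not move one way. Of 9 tested, Cyp7b1, which hydroxylates oxysterols and steroids, was 10.9-fold higher in library 1 (945 against 86.8 CPM), Mup20 2.197-fold higher (35912 against 16348 CPM) and Cyp2d9 2.08-fold higher (960.5 against 463 CPM), whereas Elovl3 was 11.7-fold lower (3.20 against 37.6 CPM). Slco1a1 (81.7 and 109.6 CPM) and Nudt7 (602 and 506 CPM) stayed within 2-fold. Of the 10 female-biased genes only Cyp2a4 was tested, at 0.0697 CPM (1 UMI) against 16.7 CPM. Mup20, Cyp2d9 and Cyp2a4 have close copies that could share reads.

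Of the genes used to order the cells by zone, 4 of 6 tested pericentral genes were lower in library 1, namely Oat 8.17-fold (3.48 against 28.5 CPM), Lect2 4.33-fold (5.15 against 22.3 CPM), Rgn 2.57-fold (96.8 against 249 CPM) and Cyp1a2 2.16-fold (7.25 against 15.6 CPM), while Cyp2e1 was at 309 and 320.4 CPM. Glul, the remaining tested gene of that list, lay the other way at 41.4 against 21.7 CPM, 1.91-fold higher in library 1 and short of 2-fold. Of 8 periportal genes, Hal was 2.51-fold lower (199.9 against 501 CPM). Cyp2f2 (2002 and 1171 CPM), Sds (478 and 661 CPM), Ass1 (1873 and 2683 CPM), Gls2 (339.5 and 332 CPM) and Alb (38655 and 41459 CPM) stayed within 2-fold. The zonation groups were cut within each library, so the same group in both libraries need not hold like cells.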

How the data were processed

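Single-cell libraries were prepared by the authors with the 10x Genomics 3′ v3.1 chemistry from livers perfused, digested and purified on Percoll. The deposited matrix holds whole-number UMI counts per gene and barcode for both libraries, 32285 genes by 32316 barcodes. The submitters' processing notes name Cell Ranger 7.1.0, STAR 2.7.2a, bcl2fastq 2.20.0 and the mm10 build. Whether intronic reads were counted, or the libraries thinned to equal depth on joining was not stated in the labels or methods used here.

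Barcodes needed 500 UMIs and 200 detected genes, and no more than 25% mitochondrial UMIs (13 genes). A cell took a non-hepatocyte class when that class's marker list gave at least 3 UMIs from 2 markers and 0.1% of its UMIs (erythroid 5%, plasma 0.5%), with the next list at no more than 0.5 of it. It took the hepatocyte class when no list passed, hepatocyte markers gave at least 5% of UMIs and other lists gave at most 2 UMIs or under 0.1%. Unassigned cells numbered 463 in library 1 and 187 in library 2, and 208 and 191 passed several lists. Gated or unassigned cells with 4% to 6% of UMIs from hepatocyte markers, on either side of the 5% limit, numbered 484 and 130. No doublet caller was run, so doublets remain. The members, the gene lists and the gate were chosen with earlier results of these data known.

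UMIs were summed per class and library (CPM, exact Poisson 95% intervals). Ratios carry exact conditional Poisson intervals. A call needed 2-fold with 3 UMIs added to both sums and at least 10 CPM in one group, and a count of 0 was read as up to 3 UMIs. Shares of cells were compared after thinning to 1000 UMIs. B and T cells were planned as the measure of free RNA. Erythroid cells were added as the main measure after T cells were seen to hold more Hsd11b1 UMIs per cell. Genes named were the 8 members, genes of the fixed lists at 100 CPM or past 2-fold, and the 2 genes most like each member. H6pd, Hsd11b2, Srd5a2, Srd5a3, Glul, Rdh1, Rdh9, Rdh19 and Cebpa are outside that rule and were named after their values were seen. Genes that overlap a member or share its 3′ sequence were named for that. Hsd17b8 and Rdh16f1 of the lists were not found by symbol. Cluster classes, an alternative, used 2000 variable genes, 30 components and 15 neighbours (33 clusters; scikit-learn 1.9.0, igraph 0.11.9). Python 3.11.15, numpy 2.4.6, scipy 1.17.1 and pandas 2.3.3 were used. The fold rule and the intervals were tested on simulated data for the comparison of the libraries in deep hepatocytes: of 200 genes changed 4-fold among 32285, 200 were recovered, and 95.4% of ratio intervals held the true ratio. Those data were drawn as Poisson counts, as the intervals assume, with no spread between cells or mice. Changes near 2-fold were not simulated. Positions were matched by Ensembl ID to GENCODE M21 on GRCm38 (32235 of 32285 IDs), which may differ from the annotation the authors counted on.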

Additional observations from a re-analysis of the deposited data

Results flagged for a closer look

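Droplets that passed the hepatocyte gate at 5000 UMIs or more but had over 25% mitochondrial UMIs were outside the comparisons above, and the 8 genes gave signal in them above what 3 UMIs would give (0.567 CPM in library 1 and 0.385 CPM in library 2). They numbered 452 in library 1 (median 69.7% mitochondrial UMIs) and 948 in library 2 (66.3%). Hsd11b1 was at 31.8 CPM in library 1 and 232 CPM in library 2. Hsd17b6 was at 12.1 and 51.4 CPM, Rdh16f2 at 13.2 and 39.7 CPM, and Srd5a1 at 21.5 and 42.2 CPM. Hsd3b5 was at 8.13 and 11.4 CPM, Hsd17b2 at 101.1 and 80.9 CPM, Akr1c6 at 206 and 133 CPM, and Nr3c1 at 42.9 and 18.9 CPM. Scaled to UMIs without mitochondrial genes, Hsd11b1 was at 73.0 and 601 CPM, against 40.4 and 303 CPM in the deep cells under the limit, and Hsd17b6 was at 27.8 and 133 CPM, against 28.3 and 296 CPM.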

How the results depend on the processing

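The count of 5 members at least 2-fold lower in library 1 was 4 or 5 under every alternative except a fold of 3, where it was 2 (Hsd11b1 and Hsd17b6), and 0 members were called 2-fold higher in any. Nr3c1 came nearest, with a log2 ratio of 1.003 at the 10% mitochondrial limit before the 3 UMIs were added to both sums. Where the count was 4, Hsd3b5 was the one lost. Its log2 ratio ranged from −1.28 to −0.21. Of 112 log2 ratios between the libraries, 86 stayed within the counting interval, 26 moved beyond it and 0 of the called ones reversed. Cells of 5000 to under 10000 UMIs alone, where Hsd3b5 lay the other way, were not among these alternatives. Hsd11b1 ranged from −3.47 to −2.84 and Hsd17b6 from −4.03 to −2.89. Rdh16f2 ranged from −2.80 to −1.40 and Srd5a1 from −2.50 to −1.14. Akr1c6, not called, ranged from −0.16 to 0.38. All genes shifted with the mitochondrial limit: their median log2 ratio went from 0.026 to 0.36 at 10% (20.5% of genes higher, 83 and 155 cells) and 0.46 with no limit (6.81% higher). With erythroid UMIs subtracted 3.54% were higher, with no minimum level 11.9% were lower, and in cells of 10000 to under 20000 UMIs 4.49% were higher. That depth range, the 10% to 25% mitochondrial range and the zonation of cells over 10000 UMIs or without Alb were chosen after seeing the data. Of 48 ratios of zonation groups, 43 stayed within the interval and 0 of those past 2-fold reversed. In library 2, Rdh16f2 went from 0.15 to −0.0052 without Alb, and Nr3c1 from −0.038 to 0.11 without Alb and 0.12 in cells of at least 10000 UMIs. No paired analysis was possible because each genotype has 1 library and no label ties a suffix to it. Depth limits Hsd3b5 most, with 118 and 142 UMIs in deep hepatocytes.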
